A study of Mus musculus with 2 samples.

Results

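Hcn2, Hcn3 and Hcn4, which encode pore-forming subunits of the hyperpolarization-activated pacemaker channels, and Pex5l, which encodes their auxiliary subunit TRIP8b, were described in the left cerebral cortex of newborn mice. The 4 genes were taken by symbol from 55536 annotated genes, and the M21 annotation gives them 19 transcript models. The data come from 1 group of 2 male mice, F1 hybrids of C57BL/6 and CAST listed as B6CASTF1/J, at 4 days of age and with no treatment named. Each mouse gave 1 total RNA library from 300 ng of RNA, to which ERCC spike-ins, synthetic RNAs in known quantity, had been added. The 2 libraries are called replicate 2 and replicate 1, as numbered in the labels, which name separate cortex samples for them. With a single group there was no condition to compare, so the results are levels, the order of the genes, their transcripts, and how far the libraries differed. Reads of the CAST allele were counted against a C57BL/6 genome, and the effect of this on the levels was not tested.

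HCN channels open when a neuron's membrane becomes more negative than at rest and pass a mixed sodium and potassium current, known as Ih or, in the heart, as the funny current. Cyclic AMP binds to a domain in their intracellular C-terminal part and makes them open more readily, which links the current to signals that raise or lower cyclic AMP. Channels are tetramers of like or unlike subunits, and in neurons the current sets the resting potential, the summation of dendritic inputs and rhythmic firing. TRIP8b binds HCN subunits at the cyclic nucleotide binding domain and at the last 3 residues of the protein, opposes the action of cyclic AMP, and controls how many channels reach the membrane. Its variants differ at the N terminus, and they are known to differ in whether they raise or lower the number of channels at the surface. The HCN family has a further member that was not analysed here.

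The coding sequences of the 3 channel genes follow one plan. Each coding sequence is split over 8 exons, and exons 3 to 7 have the same lengths in all 3 genes, 162, 219, 147, 241 and 165 bases. Over those 934 bases, 83.4% of positions were identical between Hcn2 and Hcn4, 81.8% between Hcn3 and Hcn4, and 78.9% between Hcn2 and Hcn3. Exon 6 showed the widest range, with 71.0% identity between Hcn3 and Hcn4 and 85.1% between Hcn2 and Hcn4. The total lengths differ through the outer exons: the last exon has 680 coding bases in Hcn2, 698 in Hcn3 and 1460 in Hcn4, and the whole proteins have 863, 779 and 1201 codons. The stretch around the selectivity filter is shown because it is what makes these proteins channels. The capitals mark the codons of Gly-Tyr-Gly, the filter motif shared with potassium channels, in 57 bases of each GENCODE M21 coding sequence, 5′ to 3′.
Hcn2: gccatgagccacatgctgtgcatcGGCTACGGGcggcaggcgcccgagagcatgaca
Hcn3: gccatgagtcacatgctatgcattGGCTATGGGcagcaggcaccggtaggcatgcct
Hcn4: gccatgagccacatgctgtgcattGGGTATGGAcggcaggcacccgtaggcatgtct
Within this window the identity was 87.7% between Hcn3 and Hcn4, 82.5% between Hcn2 and Hcn4 and 78.9% between Hcn2 and Hcn3, and each gene spells the Gly-Tyr-Gly codons with different bases.

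The ends of the coding sequences are shown because the last 3 residues are a docking site of TRIP8b. The capitals mark the last 3 codons before the stop codon, and the stop codon closes each line.
Hcn2: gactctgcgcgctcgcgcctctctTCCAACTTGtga
Hcn3: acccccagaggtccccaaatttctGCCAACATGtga
Hcn4: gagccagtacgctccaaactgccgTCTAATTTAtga
Hcn2 and Hcn4 end in Ser-Asn-Leu, written with different codons, and Hcn3 ends in Ala-Asn-Met. In the direction of the genes, their similarity left little room for reads to be assigned to the wrong one. Of the 31-base words in their transcripts, 5 of 3190 in Hcn2, 5 of 4180 in Hcn3, 4 of 6088 in Hcn4 and 12 of 8997 in Pex5l also occur in the same direction in another gene. On the opposite strand, 681 words of Hcn3 and 263 of Pex5l occur in another gene, and such overlaps are taken up below. The deposited gene-level count of each of the 4 genes was a whole number in both libraries. In a second deposited transcript table, the summed counts of Pex5l were not whole, at 1442.07 in replicate 2 and 1399.18 in replicate 1.

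Pex5l encodes proteins with different N termini, and its coding starts are shown because the transcript results below turn on them. The gene (ENSMUSG00000027674.16) lies on the minus strand of chromosome 3 in mm10, at chr3:32949408-33143247. A distal first exon at chr3:33142849-33143082 holds 234 bases, of which 21 are coding. A proximal start uses 93 coding bases of an exon at chr3:33081976-33082068 and the whole exon at chr3:33080465-33080536, which has 72 bases. A cassette exon at chr3:33024696-33024800, an exon that transcripts can include or skip, holds 105 bases, or 35 codons in frame. All these paths join the shared exon at chr3:33014965-33015076. In the lines below, the capitals mark the bases of the alternative exons, and the lower-case bases after them are the first 30 of the shared exon. The cassette line also has, in lower case before the capitals, the last 30 bases of the proximal exon.
Distal start: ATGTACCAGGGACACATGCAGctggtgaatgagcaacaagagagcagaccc
Proximal start without the cassette: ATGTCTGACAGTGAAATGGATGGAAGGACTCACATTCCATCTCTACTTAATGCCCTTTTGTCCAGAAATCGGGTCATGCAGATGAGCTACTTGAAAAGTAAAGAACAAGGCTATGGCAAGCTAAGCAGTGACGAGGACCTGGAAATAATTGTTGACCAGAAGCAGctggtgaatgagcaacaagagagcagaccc
Cassette exon: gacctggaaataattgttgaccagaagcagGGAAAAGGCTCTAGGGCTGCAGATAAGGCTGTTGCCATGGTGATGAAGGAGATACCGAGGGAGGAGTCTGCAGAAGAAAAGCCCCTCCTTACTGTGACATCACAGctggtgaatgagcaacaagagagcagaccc
The distal start thus contributes 21 coding bases in place of the 165 coding bases of the proximal start. Models with the proximal start encode 615 codons without the cassette and 650 with it, with 1 exception: Pex5l-204 has 591. The coding model with the distal start, Pex5l-206, encodes 567.

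All 4 genes were expressed at moderate levels, and Hcn4 was the lowest of them in both libraries. Levels are in TPM, which sets the length-corrected abundance of a gene against that of all transcripts in the library. The bounds given with a TPM are the authors' own interval for that library, and they cover counting and read assignment within the library only. Hcn2 (ENSMUSG00000020331.9, chr10:79716634-79736108, plus strand), whose channels carry much of the slow Ih of thalamic and other neurons, stood at 27.03 TPM in replicate 2 (interval 24.9 to 27.4) and 23.7 TPM in replicate 1 (interval 21.6 to 24.1). These values rest on 1612 reads in replicate 2 and 1248 in replicate 1, and the 2 intervals did not overlap. Hcn3 (ENSMUSG00000028051.10, chr3:89146074-89160196, minus strand), whose channels respond little to cyclic AMP, stood at 26.1 TPM in replicate 2 (interval 22.6 to 28.7) and 34.3 TPM in replicate 1 (interval 29.4 to 37.4). It had 1358 reads in replicate 2 and 1491 in replicate 1, and it was high in the library in which Hcn2 was low, again with intervals that did not overlap. Hcn4 (ENSMUSG00000032338.9, chr9:58823412-58863175, plus strand), the main pacemaker channel of the sinoatrial node of the heart, stood at 16.7 TPM in replicate 2 (interval 15.5 to 16.9) and 18.6 TPM in replicate 1 (interval 17.1 to 18.7). It had the most reads of the 4, 1940 in replicate 2 and 1908 in replicate 1, and the lowest TPM. TPM corrects for length, and the Hcn4 transcript of 6118 bases is longer than the main coding model of any of the others. Over coding models alone, given below, Hcn4 was not the lowest in replicate 2, with 16.7 TPM against 16.6 TPM for Hcn3. The intervals of Hcn4 did not overlap between the libraries either, but the intervals come with no stated level. The test between the libraries on TMM-scaled counts, given below, did not call Hcn4. Pex5l stood at 25.5 TPM in replicate 2 (interval 23.5 to 26.9) and 27.3 TPM in replicate 1 (interval 25.1 to 28.9), from 1348 and 1277 reads. The libraries were closest for Pex5l, and its intervals alone overlapped.

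Set among the other genes, the 4 lay from the middle to the upper part of the range of expressed genes. A TPM of at least 1 in each library was found for 13084 of 22028 protein-coding genes (59.4%), and for 4 of 4 here. The median of those detected genes was 17.3 TPM in replicate 2 and 17.9 TPM in replicate 1. Over the 2 libraries Hcn3 averaged 30.2 ± 5.82 TPM (SD, n = 2), above 67.2% of the detected protein-coding genes. Pex5l averaged 26.4 ± 1.27 TPM, above 63.0% of them, and Hcn2 25.4 ± 2.37 TPM, above 61.6%. Hcn4 averaged 17.7 ± 1.34 TPM, above 50.1%, which places it at the middle of the detected genes. In a tissue sample, fewer cells that express a gene and less RNA of it per cell cannot be told apart.

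The order of the genes was examined as 6 pair ratios of TPM within each library. The rule for a called pair was a ratio on the same side of 0 in each library, with a mean log2 ratio over 2 SD. An exact sign test over 2 animals cannot go below p = 0.5, so the pairs carry no p-value. Hcn3, Pex5l and Hcn2 each lay above Hcn4 under this rule. Hcn3 was 1.69-fold higher than Hcn4, with log2 ratios of 0.64 in replicate 2 and 0.88 in replicate 1 (mean 0.76 ± 0.17). Pex5l was 1.49-fold higher than Hcn4, with log2 ratios of 0.61 in replicate 2 and 0.55 in replicate 1 (mean 0.58 ± 0.04). Hcn2 was 1.43-fold higher than Hcn4, with log2 ratios of 0.69 in replicate 2 and 0.35 in replicate 1 (mean 0.52 ± 0.24). The 3 genes at the top did not differ from each other beyond their spread. The mean log2 ratio was 0.18 ± 0.21 for Hcn3 over Pex5l, −0.06 ± 0.20 for Hcn2 over Pex5l and −0.24 ± 0.41 for Hcn2 over Hcn3. Hcn2 over Hcn3 changed sign, at 0.05 in replicate 2 and −0.53 in replicate 1.

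The order changed when only protein-coding models were summed, and Hcn2 then stood first in both libraries. Hcn2 kept 27.03 TPM in replicate 2 and 23.7 TPM in replicate 1, because both of its models are coding. Hcn3 had 16.6 TPM in replicate 2 and 20.3 TPM in replicate 1 in its coding model, and Pex5l had 18.7 TPM in its coding models in each library. The means were 25.4 ± 2.37 TPM for Hcn2, 18.7 ± 0.04 for Pex5l, 18.4 ± 2.68 for Hcn3 and 17.7 ± 1.34 for Hcn4. On this measure Hcn2 over Pex5l was called, with a mean log2 ratio of 0.43 ± 0.13, and so was Hcn2 over Hcn4. The calls of Hcn3 over Hcn4 (0.06 ± 0.10) and of Pex5l over Hcn4 (0.08 ± 0.11) were lost. Hcn2 over Hcn3 had a mean of 0.46 ± 0.34 and was not called, although Hcn2 was the higher in both libraries. In the other deposited transcript table, Hcn2 was also first in coding TPM, with 37.7 in replicate 2 and 32.95 in replicate 1. The next was Pex5l there, with 29.4 TPM in replicate 2 and 28.5 TPM in replicate 1, and Pex5l over Hcn4 remained called at 0.29 ± 0.10.

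**Figure D1:**
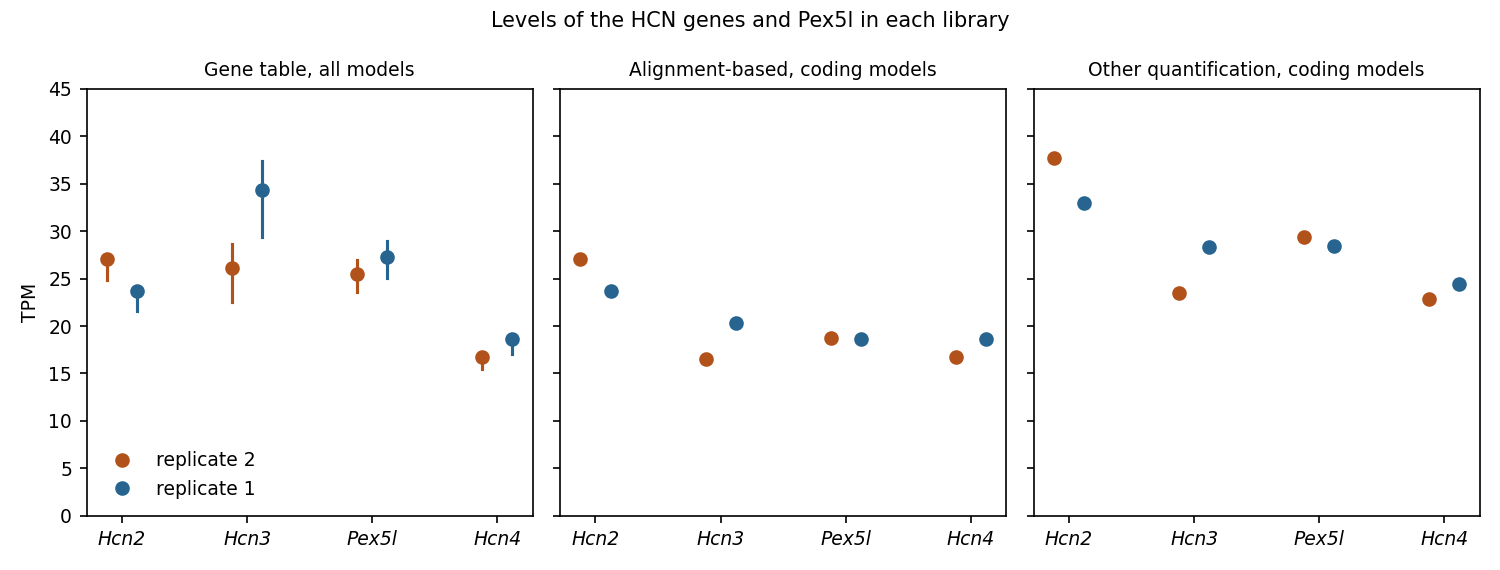
TPM (vertical axis, starting at 0) of the 4 genes in replicate 2 and replicate 1, from the gene table with all models (left, bars: the authors' interval), from the coding models of the alignment-based table (middle) and from the coding models of the other transcript table (right). Hcn4 is lowest in both libraries on the left, and Hcn2 is highest in both libraries in the middle and on the right.

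As parts of the summed TPM of Hcn2, Hcn3 and Hcn4, Hcn4 had a like share in both animals over all models, while the larger share was that of Hcn2 in replicate 2 and that of Hcn3 in replicate 1. Hcn4 made up 23.96% of the sum in replicate 2 and 24.3% in replicate 1 (mean 24.1 ± 0.247%). Hcn2 made up 38.7% in replicate 2 and 30.9% in replicate 1 (mean 34.8 ± 5.51%). Hcn3 made up 37.3% in replicate 2 and 44.8% in replicate 1 (mean 41.1 ± 5.26%). The means of Hcn2 and Hcn3 differed by less than 2 SD of the log2 ratio above. Over coding models alone, Hcn2 had the largest share in both libraries, 44.8% in replicate 2 and 37.8% in replicate 1 (mean 41.3 ± 4.96%). On that measure Hcn3 made up 27.4% in replicate 2 and 32.5% in replicate 1 (mean 29.96 ± 3.56%), and Hcn4 27.7% in replicate 2 and 29.7% in replicate 1 (mean 28.7 ± 1.40%).

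The transcript tables show where the Hcn3 difference between all models and coding models came from. Hcn3 has 1 coding model, Hcn3-201, with 4002 bases, and 3 short models without a coding sequence. The coding model took 63.5% of the gene's TPM in replicate 2 and 59.3% in replicate 1, and its interval lay above that of every other Hcn3 model in both libraries. The retained-intron model Hcn3-203 took 14.8% in replicate 2 and 12.3% in replicate 1. Hcn3-202, also with a retained intron, took 8.78% in replicate 2 and 11.7% in replicate 1, and Hcn3-204, a processed transcript, took 12.9% in replicate 2 and 16.6% in replicate 1. These 3 models have 909, 533 and 627 bases. Together they held 36.5% of the gene's TPM in replicate 2 and 40.7% in replicate 1, but only 8.37% of its reads in replicate 2 and 9.34% in replicate 1. Few reads on a short model weigh much in TPM, so this minority of the gene-level TPM of Hcn3 rests on a small number of reads. In replicate 2, 19.2, 60.2 and 34.3 estimated reads lay on Hcn3-202, Hcn3-203 and Hcn3-204, and in replicate 1 the numbers were 29.8, 58.2 and 51.3. The other transcript table gave Hcn3-202 0 reads in replicate 2 and 8.56 in replicate 1, and the non-coding models together 27.8% of the TPM in replicate 2 and 33.9% in replicate 1.

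Hcn2 and Hcn4 were simpler. Every read of Hcn2 was assigned to Hcn2-202 in both libraries and both transcript tables. Hcn2-201, with 0 reads, encodes the same number of codons and differs by an intron within the 3′ untranslated region. Hcn4 has 1 model.

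Pex5l was spread over many models, and the coding model with the distal start had the highest TPM of them in both libraries and both tables. Pex5l-206 took 41.2% of the gene's TPM in replicate 2 and 31.6% in replicate 1 (mean 36.4 ± 6.83%), at 10.5 TPM in replicate 2 (interval 7.37 to 11.7) and 8.62 TPM in replicate 1 (interval 5.08 to 9.68). In the other table it took 34.4% in replicate 2 and 24.9% in replicate 1. The second model, Pex5l-205, has the proximal start and no cassette, and it took 19.1% in replicate 2 and 21.4% in replicate 1. Its level was 4.87 TPM in replicate 2 (interval 2.29 to 6.61) and 5.85 TPM in replicate 1 (interval 2.60 to 7.54). The intervals of Pex5l-206 and Pex5l-205 were apart in replicate 2 and overlapped in replicate 1, so that the lead of Pex5l-206 over its neighbour was beyond read assignment in 1 library of 2.

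The remaining coding models of Pex5l carried the proximal start or an internal one. Pex5l-209, with the proximal start and the cassette, took 8.12% in replicate 2 and 7.32% in replicate 1. Its interval was wide, from 0.000202 to 2.92 TPM in replicate 2 and from 0.000252 to 3.19 TPM in replicate 1. Pex5l-211, which has the same coding sequence length and a longer transcript, took 5.02% in replicate 2 and 8.09% in replicate 1. Pex5l-203, with an internal start, and Pex5l-204 had 0 reads in the alignment-based table. In the other table Pex5l-203 took 7.14% in replicate 2 and 5.23% in replicate 1, and Pex5l-204 7.46% in each library. By mean share, the tables differed most for Pex5l-205 and Pex5l-209, which differ in the cassette and in non-coding bases at the 5′ end: Pex5l-209 took 19.7% in replicate 2 and 18.1% in replicate 1 in the other table, and Pex5l-205 3.49% in replicate 2 and 5.19% in replicate 1. Pex5l-201, Pex5l-208 and Pex5l-210 each stayed under 5% in every library and table.

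The 3 non-coding models of Pex5l all begin at the distal first exon. Pex5l-202, a retained-intron model, has 11 exons and runs through the gene to include the cassette exon. It took 12.98% in replicate 2 and 10.4% in replicate 1. Pex5l-212, a single exon that runs on from the distal first exon, took 9.57% in replicate 2 and 13.5% in replicate 1. Pex5l-207, with 2 exons, took 4.00% in replicate 2 and 7.76% in replicate 1. Together the 3 held 26.5% of the gene's TPM in replicate 2 and 31.6% in replicate 1, and 23.4% of its reads in replicate 2 and 26.2% in replicate 1. In contrast to Hcn3, their share of reads was close to their share of TPM.

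**Figure D2:**
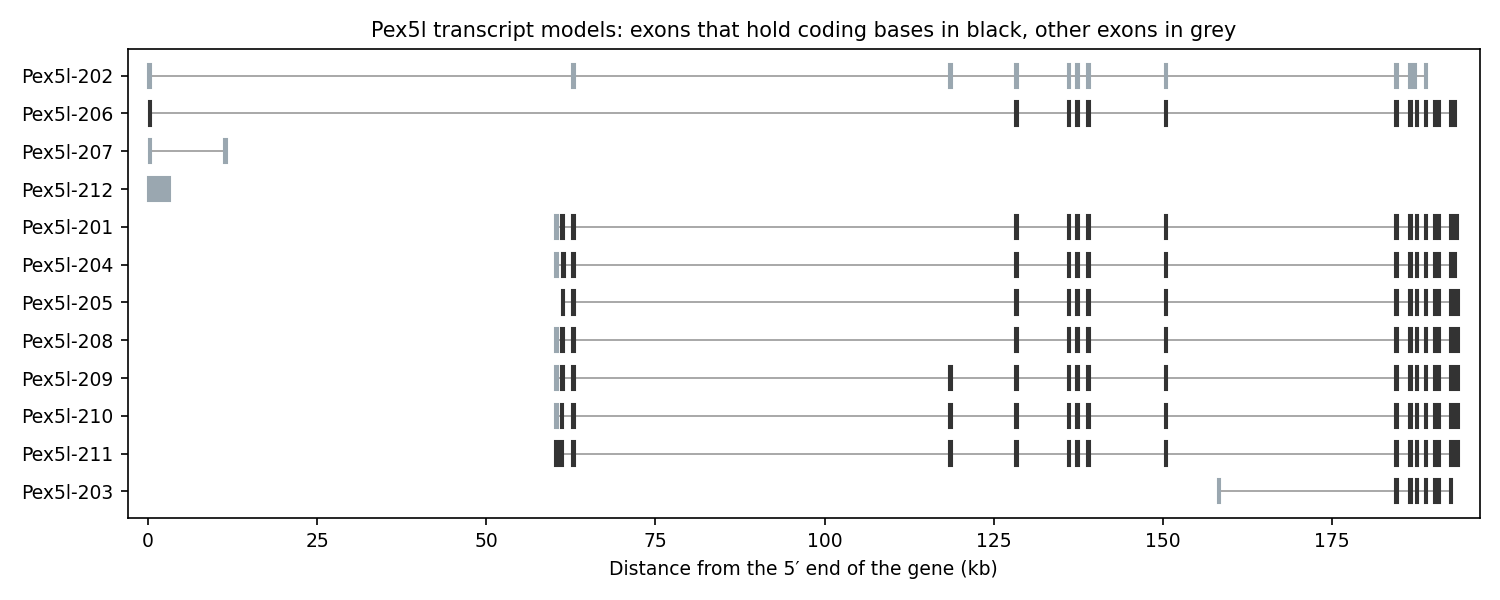
The 12 Pex5l models of the M21 annotation, drawn to scale by distance from the 5′ end of the gene in kb (horizontal axis), with exons that hold coding bases in black, other exons in grey and introns as lines. Pex5l-202, Pex5l-206, Pex5l-207 and Pex5l-212 begin at the distal first exon, Pex5l-203 begins inside the gene, and the cassette exon lies between the proximal start and the exon that all of the longer coding models share.

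**Figure D3:**
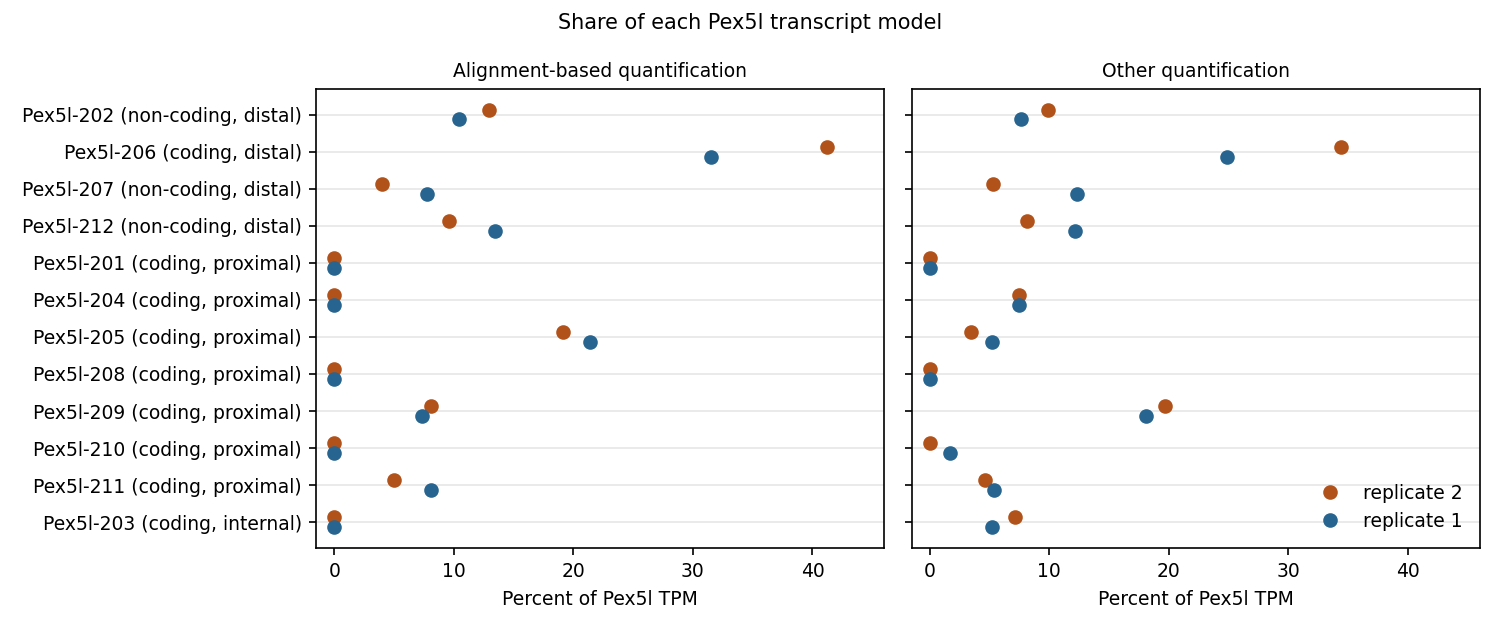
Percent of Pex5l TPM in each model (horizontal axis) in replicate 2 and replicate 1, from the alignment-based table (left) and the other transcript table (right), with models in the order of the drawing of their exons. Pex5l-206 is highest in both libraries and both tables, and Pex5l-205 and Pex5l-209 change places between the tables.

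Grouped by start, neither the distal nor the proximal coding models led in every library and table. This grouping and the next were chosen after the transcript values were seen. The distal start took 56.1% of coding Pex5l TPM in replicate 2 and 46.1% in replicate 1 (mean 51.1 ± 7.05%), and the proximal start 43.9% in replicate 2 and 53.9% in replicate 1. In the other table the distal start took 44.8% in replicate 2 and 36.6% in replicate 1, and the proximal start 45.9% in replicate 2 and 55.7% in replicate 1. Over all models, non-coding ones included, those with the distal first exon took 67.8% of Pex5l TPM in replicate 2 and 63.2% in replicate 1, with 57.6% in replicate 2 and 56.9% in replicate 1 for the other table. The distal share was higher in replicate 2 than in replicate 1 in both tables, and which start held the larger part of the coding TPM depended on the library and the table. Within the proximal start, models with the cassette took 40.8% in replicate 2 and 41.8% in replicate 1 (mean 41.3 ± 0.774%). The other table gave 69.0% in replicate 2 and 66.6% in replicate 1 (mean 67.8 ± 1.69%). The animals were close on this share within each table, and the tables lay further apart than the animals. That closeness does not cover read assignment, since the wide intervals of Pex5l-209 given above bear on the cassette share in both libraries. Both tables held transcripts with the cassette and without it, and they did not settle which were more abundant. Overlapping models share most of their bases, so these shares rest on few reads that tell models apart.

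Genes that overlap Hcn3 or Pex5l held few reads. The antisense gene 4930419G24Rik, which overlaps the cassette exon of Pex5l on the opposite strand, had 0 reads in both libraries, which allows up to 3 counts in each. The antisense gene Gm37459 had 3 reads in replicate 2 and 2 in replicate 1. The 3′ end of Hcn3 overlaps Pklr, the liver and red cell pyruvate kinase gene, on the opposite strand, and 16.3% of the 31-base words of Hcn3 occur there. Pklr had 2 reads in replicate 2 and 3 in replicate 1, against 1358 and 1491 for Hcn3. Whether counting used strand is not given in the sources used here, and with it unknown, reads of Hcn3 and Pklr in the overlap cannot be told apart. Inside Pex5l, 2 unspliced models of unknown status lie on the same strand: Gm19445 had 45 reads in replicate 2 and 89 in replicate 1, and Gm37443 had 43 in replicate 2 and 65 in replicate 1.

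Between the 2 animals, Hcn2 was higher in replicate 2 and Hcn3 lower, while Hcn4 and Pex5l did not pass the test. Each ratio sets replicate 2 over replicate 1 on TMM-scaled expected counts, and a two-sided exact binomial test was adjusted by Benjamini-Hochberg over 20385 genes. The test sets 1 library against another and its error covers counting only, so it says nothing of a condition. From the reads given above, Hcn2 had a log2 ratio of 0.26 with an SE of 0.05 (adjusted p = 1.52e-05). Hcn3 had one of −0.24 with an SE of 0.05 (adjusted p = 0.000103). Hcn4 had a log2 ratio of −0.08 (SE 0.05, adjusted p = 0.214) and Pex5l one of −0.03 (SE 0.06, adjusted p = 0.836). Thus 2 of 4 genes were called, against a background of 26.1% of all genes tested, 13.7% of them higher in replicate 2 and 12.4% lower. Calls were common between these animals, although the ratios of Hcn2 and Hcn3 were larger in size than those of most genes with many reads. Among 8165 genes with at least 1000 reads in all, the median size of the log2 ratio was 0.11. Of these genes, 88.3% had a ratio no larger in size than that of Hcn2, and 85.0% one no larger than that of Hcn3. For Hcn4 that was 38.7%, and for Pex5l 13.4%.

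The scaling by spike-ins changed 3 of the 4 calls. It placed the median of all genes tested at −0.15 on the log2 scale, replicate 2 over replicate 1. Hcn2 then had a log2 ratio of 0.12 (binomial test, adjusted p = 0.0863), Hcn3 −0.39 (adjusted p = 1.81e-11), Hcn4 −0.23 (adjusted p = 8.85e-06) and Pex5l −0.17 (adjusted p = 0.00865). Since this scaling lowers every ratio alike, the places of the genes relative to the median could not change: Hcn2 lay above it and Hcn3 furthest below it. The direction of each gene was the same under TMM, DESeq2 size factors, total counts, spike-ins and the other quantification. For 2 genes it lay within the SE in some of these. Pex5l had −0.008 (SE 0.06) with DESeq2 size factors, and Hcn4 had −0.02 (SE 0.05) in the other quantification.

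**Figure D4:**
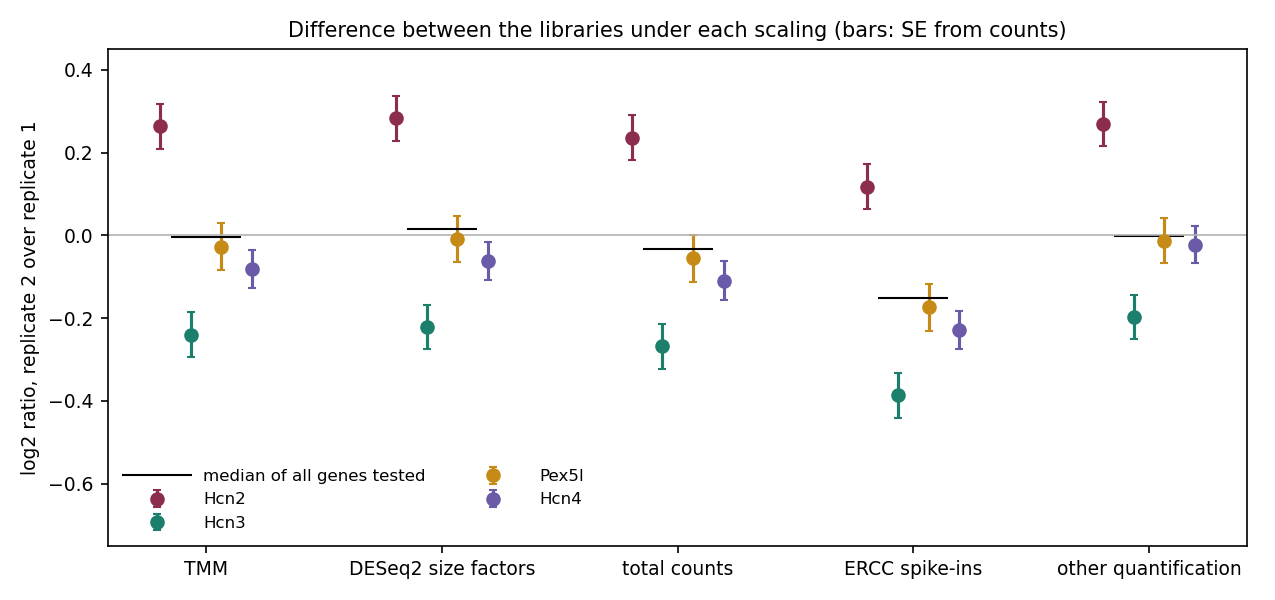
Log2 ratio of replicate 2 over replicate 1 (vertical axis) for Hcn2, Hcn3, Pex5l and Hcn4 under 5 scalings, with bars for the SE from counts and a black line for the median of all genes tested. Hcn2 lies above 0 and Hcn3 below 0 under each, and all 4 genes and the median are shifted down under spike-in scaling.

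Several markers of cells and regions differed between the same libraries. The calls below stand beside 13.7% of all genes tested called higher in replicate 2 and 12.4% called lower. Detection was found for 5 of 5 excitatory neuron markers and 3 of 3 forebrain markers, with summed TPM of 496 and 152 in replicate 2 and 560 and 154 in replicate 1. It does not test the cortical label, since 5 of 5 striatal and 4 of 4 thalamic markers were detected as well. Markers of output neurons of the olfactory bulb were called higher in replicate 2 for 3 of 3, with sums of 37.3 TPM in replicate 2 and 7.45 TPM in replicate 1. Striatal markers were called higher for 5 of 5 (102 TPM in replicate 2 and 65.7 TPM in replicate 1), interneuron markers for 3 of 4 (274 TPM in replicate 2 and 221 TPM in replicate 1), astrocyte markers for 3 of 3 (180 TPM in replicate 2 and 163 TPM in replicate 1) and haemoglobin genes for 3 of 3 (432 TPM in replicate 2 and 203 TPM in replicate 1). Thalamic markers, from a region known for Hcn2 and Hcn4, were called higher for 2 of 4 and lower for 0 of 4, with sums of 57.1 TPM in replicate 2 and 62.1 TPM in replicate 1. Ttr, the defining transcript of the choroid plexus, stood at 32.4 TPM in replicate 2 and 1.03 TPM in replicate 1, and the other 2 markers of that tissue were under 1 TPM. Heart and skeletal muscle markers, from the tissue best known for Hcn4, summed to 6.28 TPM in replicate 2 and 5.21 TPM in replicate 1, with Ckm at 0 reads in replicate 1. Photoreceptor markers summed to 0.170 TPM in replicate 2 and 0.370 TPM in replicate 1, with Crx at 0 reads in replicate 2. Markers of oligodendrocytes, microglia and endothelium summed to 23.4 to 50.0 TPM in replicate 2 and 21.6 to 57.4 TPM in replicate 1. No list had a marker at 0 in both libraries. The part of these cells in the differences of Hcn2 and Hcn3 was not tested. The depth was 29511737 expected counts for replicate 2 and 26897687 for replicate 1 with spike-ins, and 29408200 for replicate 2 and 26810747 for replicate 1 over annotated genes alone.

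Among proteins known to bind or regulate HCN channels, the 3 highest lay above all of the channel genes, and 4 of 12 were not detected. Of 12 partners, Pex5l included, 8 were detected at a TPM of 1 in both libraries, with a median over all 12 of 19.2 TPM in replicate 2 and 21.2 TPM in replicate 1. Across all protein-coding genes, that median was 4.03 TPM in replicate 2 and 4.28 TPM in replicate 1. Flna, the actin crosslinker filamin A, which affects HCN surface number, averaged 220 ± 3.16 TPM (SD, n = 2). Apba2, a neuronal adaptor protein, averaged 104.6 ± 1.01 TPM, and Nedd4l, a ubiquitin ligase, 69.7 ± 13.5 TPM. The lowest detected partner was Grasp, the scaffold tamalin, at 6.72 ± 0.827 TPM. Cav3, the muscle caveolin, had 1 read in replicate 2 and 0 in replicate 1, and Kcne2, a small accessory subunit of potassium channels, had 12 reads in replicate 2 and 2 in replicate 1. Lrmp and Mrvi1, related membrane proteins reported to modulate Hcn4 channels, were under 1 TPM in both libraries. Of 11 partners tested, 1 was called higher in replicate 2 and 3 lower, against the backgrounds of 13.7% and 12.4%.

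The enzymes that make and break down cyclic AMP were mostly present. Of 10 adenylyl cyclase genes, 9 were detected, with a median of 13.8 TPM in replicate 2 and 16.2 TPM in replicate 1. Adcy1, a calcium-stimulated cyclase of neurons, was far above the others at 186 ± 1.61 TPM, followed by Adcy5 at 39.3 ± 3.28 TPM and Adcy2 at 25.3 ± 0.523 TPM. Adcy4 was the lowest detected at 2.00 ± 0.877 TPM, and Adcy10, the soluble cyclase, had 3 reads in each library. Of 16 phosphodiesterase genes, 14 were detected, with a median of 19.1 TPM in replicate 2 and 17.4 TPM in replicate 1. Pde2a, which cyclic GMP activates, averaged 89.5 ± 0.120 TPM, Pde4d 56.7 ± 2.31 TPM and Pde10a, best known from the striatum, 52.5 ± 0.368 TPM. Pde8a was the lowest detected at 1.26 ± 0.0990 TPM. Between the libraries, 1 of 9 cyclases tested was called higher in replicate 2 and 2 lower, and 4 of 16 phosphodiesterases were called higher and 2 lower, against 13.7% higher and 12.4% lower over all genes tested.

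The nearest relatives of the HCN channels split sharply by family. The cyclic nucleotide-gated channels, which serve sight and smell, were not detected: 0 of 6 reached a TPM of 1, the most reads of any were 11 in a library, and Cnga1 had 0 reads in both, which allows up to 3 counts in each. The KCNH potassium channels, which share a related domain that does not bind cyclic nucleotides well, were detected for 7 of 8. Their median was 9.64 TPM in replicate 2 and 9.04 TPM in replicate 1. Kcnh3 was highest at 32.4 ± 1.27 TPM, then Kcnh7 at 27.1 ± 6.03 TPM and Kcnh5 at 11.4 ± 1.82 TPM, with Kcnh8 the lowest detected at 1.66 ± 0.233 TPM. Of 8 KCNH genes tested, 1 was called higher in replicate 2 and 3 lower, and of 3 cyclic nucleotide-gated channels tested, 0 were called, against 13.7% higher and 12.4% lower over all genes tested. No p-value of those 3 was under 0.05 before adjustment.

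Pex5l is a relative of Pex5, the receptor that carries proteins into peroxisomes, and Pex5 was the higher of the pair. Pex5 averaged 41.0 ± 1.23 TPM, with 41.9 TPM in replicate 2 and 40.2 TPM in replicate 1, above Pex5l in both libraries. All 10 genes of peroxisomal import listed were detected, with a median of 12.5 TPM in replicate 2 and 12.3 TPM in replicate 1. Pex14, the docking protein on the peroxisome membrane, averaged 20.4 ± 0.0707 TPM, Pex6, an ATPase that recycles the receptor, 14.2 ± 1.69 TPM, and Pex10, a ubiquitin ligase of the membrane, was lowest at 6.55 ± 0.771 TPM. Of these 10 genes 1, Pex5 itself, was called higher in replicate 2 (binomial test, adjusted p = 0.00132) and 0 lower, against 13.7% higher and 12.4% lower over all genes tested, while Pex5l did not pass the test.

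**Figure D5:**
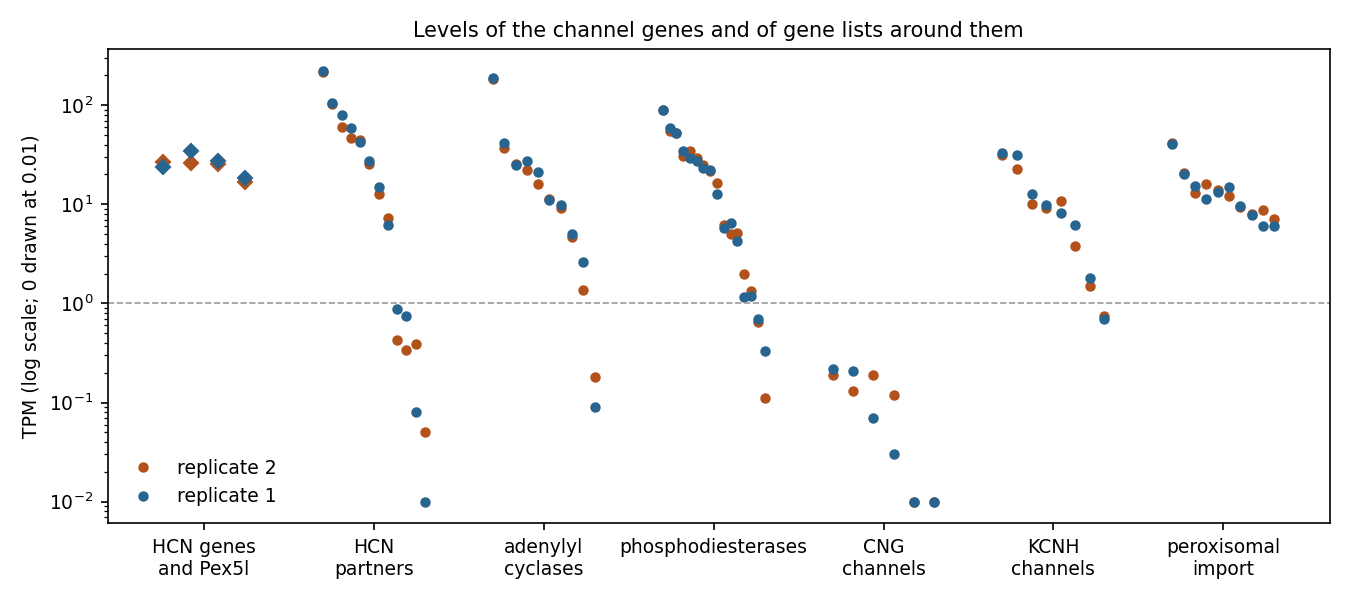
TPM (vertical axis, log scale, values of 0 drawn at 0.01, dashed line at 1 TPM) of Hcn2, Hcn3, Pex5l and Hcn4 (diamonds) and of the genes of 6 lists (circles, each list sorted by mean TPM) in replicate 2 and replicate 1. The 4 genes lie between 16.7 and 34.3 TPM, Flna and Adcy1 far above them, and the 6 cyclic nucleotide-gated channels all under 1 TPM.

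The genes closest in level were found as the 3 protein-coding genes with the smallest of the larger differences in log2(TPM + 1) over the 2 libraries. For Hcn2 these were Rnd3, Eid2b and Psmf1, with differences of at most 0.0129 on that scale. For Hcn3 they were Cntn6, Brms1l and Hnrnph3, for Hcn4 Ptpn4, Atrip and Kcnj3, and for Pex5l Nmd3, Tmem135 and Homer2, with differences of at most 0.0119. With 2 libraries such likeness is likeness of level, and many genes share it.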

How the data were processed

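Total RNA-seq of 2 libraries was used as deposited. The authors deposited, per the file headers, a gene table and a transcript table with expected counts, TPM, its posterior mean, and lower and upper TPM bounds. The deposited bounds, a signal column, come with no stated level. Per the file headers, the transcript table adds the percent of a gene's TPM held by each model. A second deposited transcript table holds estimated counts and TPM. The deposited notes name mm10 and M21. The gene table is called alignment-based here, and the aligner, the quantifiers and the use of strand were not given in the sources used here. Reads are estimated read counts throughout.

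The members and lists were chosen with earlier results of these data known. Named genes are the 4 members, the 3 highest and the lowest detected of each list by mean TPM, and the 3 genes nearest in level to each member. Pex5, Cav3, Kcne2, Lrmp, Mrvi1, Adcy10, Cnga1, Ttr, Ckm, Crx and the genes that overlap members were named after their values were seen. Transcripts are named at 5% of their gene in any library and table. Pair ratios used log2(TPM + 0.1). Between-library tests used rounded expected counts, TMM scaling (edgeR 4.0.16, R 4.3.3), genes with at least 10 reads in all, and a threshold of 0.05. Rows for spike-ins (103501 counts in replicate 2 and 86909 in replicate 1) and rows with numeric identifiers (2 and 6 counts) were left out of tests and of the totals used for scaling. Spike-in scaling used the summed spike-in counts, and DESeq2 1.42.0 gave size factors only. The test was tried on simulated counts. SciPy 1.17.1, statsmodels 0.14.6 and pandas 2.3.3 were used in Python 3.11.15. Sequences and coordinates are from the GENCODE M21 transcripts and annotation, mm10, matched by transcript identifier for 19 of 19 models. Intervals and limits from a count of 0, set at 3 counts, cover counting error only. The labels number the source males separately, and p-values measure counting error between these 2 libraries only.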

Additional observations from a re-analysis of the deposited data

How the results depend on the processing

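A total of 208 alternative values were computed for 44 results, and 165 were classed as unchanged. For pair ratios this class means an unchanged call. An uncalled pair could still change sign, as Hcn2 over Hcn3 and Hcn3 over Pex5l did. For levels and shares it means a move of less than the spread between replicates. Leaving out a library could not change the class of a level, a pair ratio or a share, so the count of 165 does not measure stability. The other quantification gave mean levels of 35.3 TPM for Hcn2, 37.8 for Hcn3, 23.6 for Hcn4 and 40.1 for Pex5l, and rescaling to protein-coding genes gave 47.8, 56.8, 33.3 and 49.8 TPM. With coding models only, the mean of Hcn2 over Pex5l, uncalled at −0.06 over all models, changed sign to 0.43 and was called. Hcn3 over Hcn4 (0.056) and Pex5l over Hcn4 (0.083) then lost their calls. Coding models in the other quantification, added after the values were seen, gave 0.28 for Hcn2 over Pex5l, now called, and 0.13 for Hcn3 over Hcn4, no longer called. The shares of summed TPM over coding models were 41.3% for Hcn2, 29.96% for Hcn3 and 28.7% for Hcn4, and Hcn4 had 24.4% in the other quantification. Spike-in scaling gave log2 ratios of 0.12 for Hcn2, which lost its call, and −0.23 for Hcn4 and −0.17 for Pex5l, which gained one. Spike-in scaling lowers every ratio alike by construction, and the cause of the other changes was not tested beyond the short non-coding models described for Hcn3. Hcn2-202 held 98.6% by posterior mean TPM, Hcn3-201 69.1% in the other quantification and Pex5l-206 51.1% of coding TPM. In the other quantification the distal start held 40.7% of coding Pex5l TPM, the cassette 67.8% of proximal-start TPM, and non-coding models 30.9% of Hcn3 TPM. The share of called genes that were higher in replicate 2 was 52.4% with TMM, 42.0% with total counts, 58.4% with DESeq2 size factors, 57.1% in the other quantification and 10.4% with spike-ins. Leaving out either library gives the value of the other, as printed with each result. No paired analysis was possible because there is 1 group. At 1248 to 1940 reads a gene, counting alone gave an SE of 0.05 to 0.06 on the log2 ratio, and the reads that separate transcript models are fewer.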
